A study of Homo sapiens with 40 samples.

Results

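Described here are 10 of the 18417 measured genes, the core genes of transforming growth factor beta (TGF-beta) signalling: the ligand genes TGFB1, TGFB2, TGFB3 and INHBA, the receptor genes TGFBR1, TGFBR2 and TGFBR3, the signal transducer SMAD3, its inhibitor SMAD7 and the SMAD repressor SKIL. They were chosen by symbol, as the 10 genes that the array annotation gives these names, and each had 1 probe set of its own. The choice of symbols was made with earlier results of these data known. The mRNAs of TGFB1 and TGFB2 changed in opposite directions: TGFB2 mRNA fell under fluvastatin at 12 and 24 h, under 30 µM zoledronate at 48 h and, by far the most, under 100 µM zoledronate, while TGFB1 rose in 3 of the same 4 groups, and the receptor gene TGFBR1 rose in all 4. Of these calls, only those under 100 µM zoledronate were kept in all 15 alternative settings of the fit and processing. None of the 10 genes passed the test under 30 µM zoledronate at 12 or 24 h, where 0 of all 18417 genes did.

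The cells were MDA-MB-231, a human breast cancer line that lacks oestrogen and progesterone receptors and has mesenchymal features. They grew under subconfluent conditions in medium with serum and received fluvastatin, a statin that blocks HMG-CoA reductase, or zoledronate, a nitrogen-containing bisphosphonate that blocks farnesyl diphosphate synthase. Both enzymes belong to the mevalonate pathway. Total RNA of 40 cultures was measured on Affymetrix whole-transcript arrays, 4 arrays for each of 10 groups. In lot I these were fluvastatin 2 µM at 12 h, fluvastatin 2 µM at 24 h, zoledronate 30 µM at 12 h, zoledronate 30 µM at 24 h, and solvent-treated control cells at 12 and at 24 h. In lot II they were zoledronate 30 µM at 48 h, zoledronate 100 µM at 24 h, and solvent-treated control cells at 48 and at 24 h. Each treated array was set against the control array of the same lot, time and replicate number, and fluvastatin and 30 µM zoledronate share their control arrays at 12 h and at 24 h. All groups are of 1 cell line, so the replicates are separate cultures of the same cells.

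TGF-beta is secreted in a latent form and, once freed, brings together the kinase receptors encoded by TGFBR2 and TGFBR1. The activated TGFBR1 kinase phosphorylates SMAD2 and SMAD3, which enter the nucleus with SMAD4, and SMAD7 and SKIL are feedback inhibitors that SMAD signalling itself induces. In breast cancer cells the pathway is known for its part in invasion and in metastasis to bone, and MDA-MB-231 is a standard model of both.

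Array medians lay between 6.19 and 6.33 on the log2 scale, and the number of arrays, 4 a group, limits the precision. All 5 genes chosen as marks of MDA-MB-231 cells were bright, with VIM, MSN, AXL, CD44 and CAV1 at percentiles 94.5 to 98.6 of all probe sets by mean level. Of the luminal or receptor genes, ESR1, PGR and CDH1 lay at percentiles 26.7 to 30.2, while GATA3 lay at 51.6 and ERBB2 and EPCAM at 70.9 and 73.6. The blood genes PTPRC, CD3E and CD14 lay at percentiles 11.1 to 47.7, and the endothelial and perivascular genes PECAM1, CDH5 and PDGFRB at 34.0 to 47.5. One array stood apart: replicate 2 of zoledronate 30 µM at 48 h correlated with the rest of its group at a mean of 0.9845, against 0.9902 to 0.9962 for the other 39 arrays. In bulk RNA, fewer cells that carry a transcript and less of it per cell cannot be told apart.

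The promoters of TGFB1 and TGFB2 are shown because their transcripts went in opposite directions. They are the 250 bases before the RefSeq start of each gene in GRCh38.p14, printed 5′ to 3′ on the gene's own strand, with TGFB1 at chr19:41353923-41354172 on the minus strand and TGFB2 at chr1:218345086-218345335 on the plus strand. Capitals mark matches on either strand to 4 short motifs that do not overlap here: CAGAC (the SMAD box), CATTCC (TEAD), GGGCGG (the GC box bound by SP1) and TGACTCA (AP-1).
TGFB1: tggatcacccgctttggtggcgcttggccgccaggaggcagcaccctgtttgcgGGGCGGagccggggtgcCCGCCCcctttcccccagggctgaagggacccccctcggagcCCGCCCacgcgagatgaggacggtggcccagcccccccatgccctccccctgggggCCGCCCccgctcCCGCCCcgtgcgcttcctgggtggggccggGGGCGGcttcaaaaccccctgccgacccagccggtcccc
TGFB2: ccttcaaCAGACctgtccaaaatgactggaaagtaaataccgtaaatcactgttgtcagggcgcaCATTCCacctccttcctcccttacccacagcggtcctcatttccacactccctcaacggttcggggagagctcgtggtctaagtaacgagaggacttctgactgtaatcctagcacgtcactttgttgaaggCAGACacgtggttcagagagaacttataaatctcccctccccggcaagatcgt
The TGFB1 window was 76.8% G and C and held 6 matches to GGGCGG and none to the other 3 motifs. The TGFB2 window was 50.4% G and C and held 2 matches to CAGAC, 243 and 53 bases before the start, and 1 match to CATTCC, 185 bases before it. Of 35116 RefSeq promoter windows of the same length, 38.0% held at least 1 match to CAGAC, 11.9% to CATTCC, 42.6% to GGGCGG and 4.2% to TGACTCA. A window with a match to CAGAC or GGGCGG is thus common. The shares of windows with 2 matches to CAGAC or 6 to GGGCGG were not computed. The matches are a description of letters and say nothing about which factors bind there.

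Among the ligands, TGFB1 (probe set 8037005, gene at chr19:41330323-41353922) encodes the most widely expressed of the TGF-beta ligands. Under 100 µM zoledronate its log2 values were 9.46, 9.60, 9.51 and 9.76, against 8.77, 8.66, 8.73 and 9.18 in the 24 h controls of lot II. Every treated array lay above every control array, with a gap of 0.28 between the groups. TGFB1 rose by 0.75 ± 0.08 (fitted log2 difference ± SE, 4 pairs of arrays), or 1.68-fold, with an adjusted p of 1.7e-07 in limma's moderated test with Benjamini-Hochberg adjustment over all 18417 genes, the test used throughout.

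Under 30 µM zoledronate at 48 h, TGFB1 values were 9.36, 9.26, 9.47 and 9.60, against 8.64, 8.87, 8.78 and 8.78 in the 48 h controls. The groups again did not overlap, with a gap of 0.40, and TGFB1 rose by 0.66 ± 0.08 (limma, adjusted p = 5.8e-05). Fitted on the 8 arrays of this comparison alone, where few degrees of freedom remain, the same difference had an adjusted p of 0.099. Fluvastatin at 24 h gave 9.79, 9.08, 9.03 and 9.40, against 8.96, 8.75, 8.68 and 9.08 in its controls, so the groups overlapped although all 4 pairs were higher. The rise was 0.46 ± 0.08 (limma, adjusted p = 0.0011), and it depended on the pairing and on replicate 1: the adjusted p was 0.065 without the replicate block, 0.093 on the own arrays alone, and 0.073, with a difference of 0.34, when replicate 1 was left out of all groups.

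At 12 h of fluvastatin TGFB1 did not pass the test, at 0.07 ± 0.08 (limma, adjusted p = 0.76), with values of 9.18, 8.92, 8.88 and 9.32 against 9.20, 8.94, 8.66 and 9.22 in its controls. Under 30 µM zoledronate it stood at -0.04 ± 0.08 at 12 h and 0.05 ± 0.08 at 24 h, each with an adjusted p of 1 in limma. In the order of group means, 100 µM zoledronate was highest at 9.58 ± 0.13 (SD, n = 4), followed by 30 µM at 48 h at 9.42 ± 0.14 and fluvastatin at 24 h at 9.32 ± 0.35. The step of 0.16 between the first pair was larger than either SD, and no later step in the order was.

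TGFB2 (probe set 7909789, gene at chr1:218345336-218444619) encodes the ligand that needs the co-receptor TGFBR3 for efficient binding. Under 100 µM zoledronate its log2 values were 7.77, 7.44, 7.28 and 7.19, against 9.92, 9.61, 9.50 and 9.26 in the controls. The lowest control array lay 1.49 above the highest treated array, and the 4 pairs were close to one another, from -2.22 to -2.07. TGFB2 fell by 2.15 ± 0.17 on the log2 scale, or 4.44-fold (limma, adjusted p = 1.6e-09), the largest difference of any of the 10 genes in any treated group.

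TGFB2 fell under fluvastatin at both times, unevenly over the replicates. At 12 h the values were 7.70, 9.22, 9.08 and 8.92 under fluvastatin, against 9.30, 9.73, 9.59 and 9.59 in the controls, and the groups were separated by 0.08. At 24 h they were 7.78, 9.52, 9.01 and 9.20 under fluvastatin, against 9.15, 9.81, 9.59 and 9.81, and the groups overlapped. Replicate 1 had the lowest TGFB2 value under fluvastatin at both times, more than 1 log2 unit below the other 3 replicates, and replicate 1 was also the lowest of its control groups.

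The fitted falls were 0.82 ± 0.17 at 12 h and 0.71 ± 0.17 at 24 h (limma, adjusted p = 0.017 and 0.0078), and all 4 pairs were lower at each time. Both calls were lost without the replicate block, with an adjusted p of 0.27 at 12 h and 0.13 at 24 h, and on the own arrays alone, at 0.14 and 0.096. With replicate 1 left out, TGFB2 stood at -0.56 at 12 h and -0.49 at 24 h, with an adjusted p of 0.091 and 0.068. Leaving out replicate 3 gave 0.14 and 0.056, and leaving out replicate 4 gave 0.098 and 0.055.

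Under 30 µM zoledronate at 48 h, TGFB2 values were 9.10, 9.64, 8.98 and 8.97, against 9.83, 9.74, 9.67 and 9.62 in the controls. Only replicate 2 of the treated arrays, the array that stood apart, reached into the control range, and TGFB2 fell by 0.55 ± 0.17 (limma, adjusted p = 0.046). Without that array TGFB2 stood at -0.69 with an adjusted p of 0.022. The call sat at the edge of the threshold: its adjusted p was 0.34 without the replicate block, 0.11 with a random block, 0.17 on the own arrays, 0.078 after quantile normalization anew, and 0.053, 0.24 and 0.18 without replicate 1, 3 or 4.

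At 12 h under 30 µM zoledronate TGFB2 stood at 0.03 ± 0.17, with a 95% interval of -0.31 to 0.38, and at 24 h it stood at -0.02 ± 0.17, with an interval of -0.37 to 0.32 (limma, adjusted p = 1 at both times). In the order of group means, 6 groups (the 4 control groups and 30 µM zoledronate at 12 and 24 h) held the top of the TGFB2 order. Below them came 30 µM zoledronate at 48 h at 9.17 ± 0.32, fluvastatin at 24 h at 8.88 ± 0.76, fluvastatin at 12 h at 8.73 ± 0.69, and 100 µM zoledronate at 7.42 ± 0.26 (SD, n = 4 each). The last step, of 1.31, was larger than the SD of both groups beside it.

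**Figure D1:**
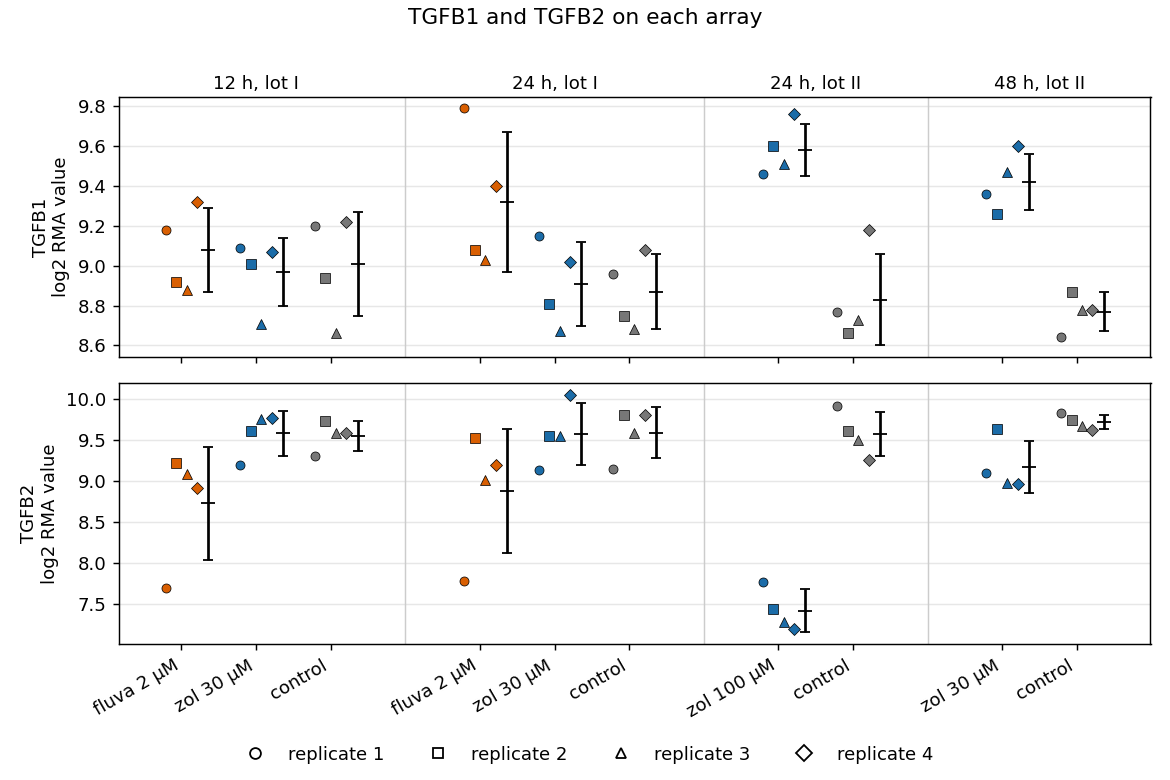
Log2 RMA values of TGFB1 (top) and TGFB2 (bottom) on each of the 40 arrays, by lot, time and treatment, with replicate numbers as symbols. The bar beside each group is the mean ± SD (n = 4), and TGFB2 under 100 µM zoledronate lies at 7.19 to 7.77, against 9.26 to 9.92 in its controls.

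Taking TGFB1 against TGFB2 pair by pair, the difference of TGFB1 from its control exceeded that of TGFB2 in all 4 pairs of fluvastatin at 12 h, fluvastatin at 24 h, 30 µM zoledronate at 48 h and 100 µM zoledronate. This contrast was set by the choice of the genes and is given as a description. Under 100 µM zoledronate it ran from 2.65 to 3.11 over the 4 pairs, with a mean of 2.90 ± 0.20 (SD of 4 pairs, log2). The 48 h group at 30 µM had a mean of 1.20 ± 0.47, with pair 2 the smallest at 0.50.

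For fluvastatin the contrast was 0.89 ± 0.47 at 12 h and 1.17 ± 0.70 at 24 h, and in both cases pair 1 was the largest, at 1.57 and 2.20. At 12 h nearly all of it came from TGFB2, since TGFB1 differed from its control by 0.07. At 30 µM zoledronate the contrast was -0.07 ± 0.22 at 12 h and 0.07 ± 0.27 at 24 h, and TGFB1 exceeded TGFB2 in 1 and in 3 of the 4 pairs.

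**Figure D2:**
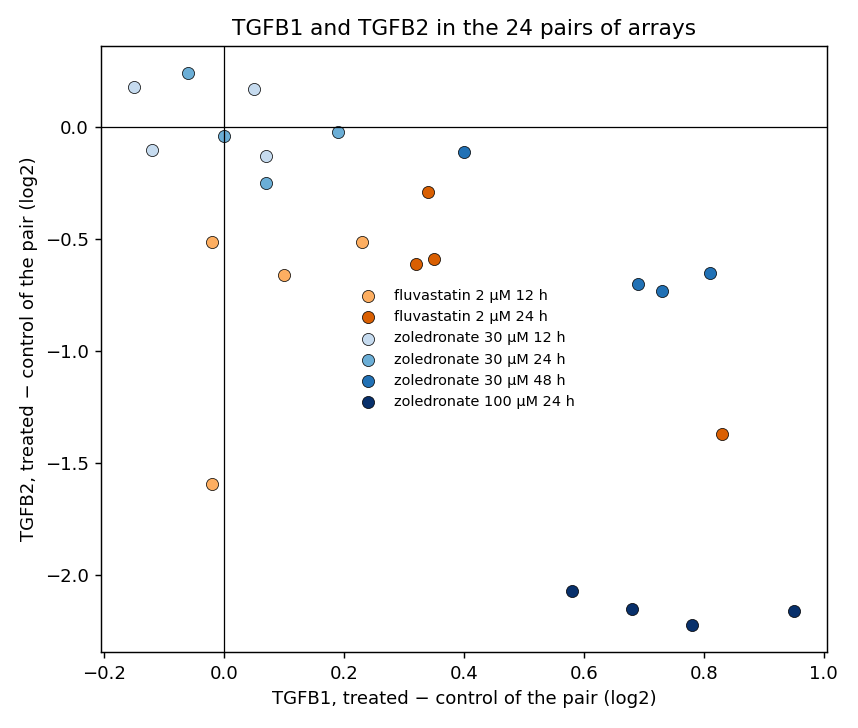
Treated minus control log2 difference of TGFB1 (horizontal axis) and TGFB2 (vertical axis) in each of the 24 pairs of arrays, coloured by treatment. The 4 pairs at 100 µM zoledronate lie at the lower right, with TGFB2 between -2.22 and -2.07, and those at 30 µM for 12 and 24 h lie near the origin.

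The other ligand genes did not pass the test in any treated group. Their probe sets lay near the middle of all probe sets by mean level, at percentile 47.0 for TGFB3 and 52.9 for INHBA. Whether these transcripts were detected was not tested, so small differences there need not mean unchanged expression. TGFB3 (probe set 7980316, gene at chr14:75958097-75983011) encodes the remaining TGF-beta isoform, and its differences ran between -0.13 (fluvastatin 12 h) and 0.22 (fluvastatin 24 h), with the smallest adjusted p at 0.28 in limma. INHBA (probe set 8139207, gene at chr7:41685114-41705406) encodes the subunit of activin A, a related ligand that also acts through SMAD2 and SMAD3. Its differences ran between -0.12 (fluvastatin 24 h) and 0.02 (100 µM zoledronate). The 95% interval for INHBA at 100 µM zoledronate was -0.13 to 0.17, and that for TGFB3 was -0.28 to 0.24.

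Among the receptors, TGFBR1 (probe set 8156826, gene at chr9:99103647-99154192) encodes the kinase that phosphorylates SMAD2 and SMAD3. Under 100 µM zoledronate its log2 values were 10.77, 10.55, 10.53 and 10.60, against 9.86, 9.77, 9.78 and 9.96 in the controls. The groups lay 0.57 apart, and TGFBR1 rose by 0.77 ± 0.08, or 1.70-fold (limma, adjusted p = 5.6e-08). Under 30 µM zoledronate at 48 h the values were 10.36, 10.20, 9.94 and 10.36, against 9.83, 9.78, 9.68 and 9.88, again without overlap. That rise was 0.42 ± 0.08 (limma, adjusted p = 0.0018), and its adjusted p was 0.064 without the replicate block and 0.15 on the own arrays.

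TGFBR1 rose under fluvastatin at both times, with no overlap between groups at either. The values were 10.05, 10.31, 10.28 and 10.11 at 12 h, against 9.52, 9.96, 9.80 and 9.71 in the controls. At 24 h they were 10.32, 10.25, 10.63 and 10.51 under fluvastatin, against 9.45, 9.94, 9.90 and 9.86. The rise was 0.44 ± 0.08 at 12 h and 0.64 ± 0.08 at 24 h (limma, adjusted p = 0.0091 and 3.5e-05). The 12 h call was lost without the replicate block (adjusted p = 0.17), on the own arrays (0.089) and without replicate 1, 3 or 4 (0.052, 0.14 and 0.065), and the 24 h call only on the own arrays (0.065). Under 30 µM zoledronate TGFBR1 stood at -0.02 ± 0.08 at 12 h and 0.10 ± 0.08 at 24 h (limma, adjusted p = 1 at both times).

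TGFBR2 (probe set 8078350, gene at chr3:30606356-30694142) encodes the receptor kinase that binds the ligand first. It passed the test only under fluvastatin at 24 h, with values of 10.58, 10.15, 10.28 and 10.52 against 10.08, 9.95, 10.07 and 10.38 in the controls. The groups overlapped, all 4 pairs were higher, and the rise was 0.26 ± 0.07 (limma, adjusted p = 0.022). This call was lost without the replicate block (0.27), with a random block (0.089), on the own arrays (0.13) and without replicate 1, 3 or 4 (0.3, 0.071 and 0.068). At 100 µM zoledronate TGFBR2 stood at 0.16 ± 0.07 with an adjusted p of 0.11 in limma, and it passed after quantile normalization anew, at 0.28 with an adjusted p of 0.0054, and with array weights, at 0.042.

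TGFBR3 (probe set 7917649, gene at chr1:91680343-91906002) encodes betaglycan, a co-receptor without kinase activity that presents TGF-beta to TGFBR2. Under 100 µM zoledronate its values were 8.06, 8.20, 8.22 and 8.03, against 7.51, 7.64, 7.61 and 7.95 in the controls. The groups were 0.08 apart, pair 4 differed by 0.08 and the other pairs by 0.55 to 0.61. The rise was 0.45 ± 0.12 (limma, adjusted p = 0.005), with an adjusted p of 0.082 without the replicate block, 0.052 without replicate 1 and 0.067 without replicate 3.

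Under fluvastatin at 24 h TGFBR3 values were 8.24, 8.20, 8.42 and 8.69, against 7.50, 7.90, 7.95 and 8.12 in the controls, without overlap. The rise of 0.52 ± 0.12 (limma, adjusted p = 0.0074) lost its call without the replicate block (0.13), on the own arrays (0.069), and without replicate 1 (0.18) or 3 (0.056). At 48 h of 30 µM zoledronate the 4 pairs of TGFBR3 differed by 0.33, -0.17, 0.49 and 0.97, so that 1 pair ran the other way. Its fitted rise of 0.41 ± 0.12 (limma, adjusted p = 0.041) was called in only 8 of the 15 alternative settings. Without replicate 4 it was 0.22 with an adjusted p of 0.26, and without the replicate block its adjusted p was 0.32. At 12 h of fluvastatin TGFBR3 stood at 0.29 ± 0.12 with an adjusted p of 0.27 in limma, with all 4 pairs higher.

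**Figure D3:**
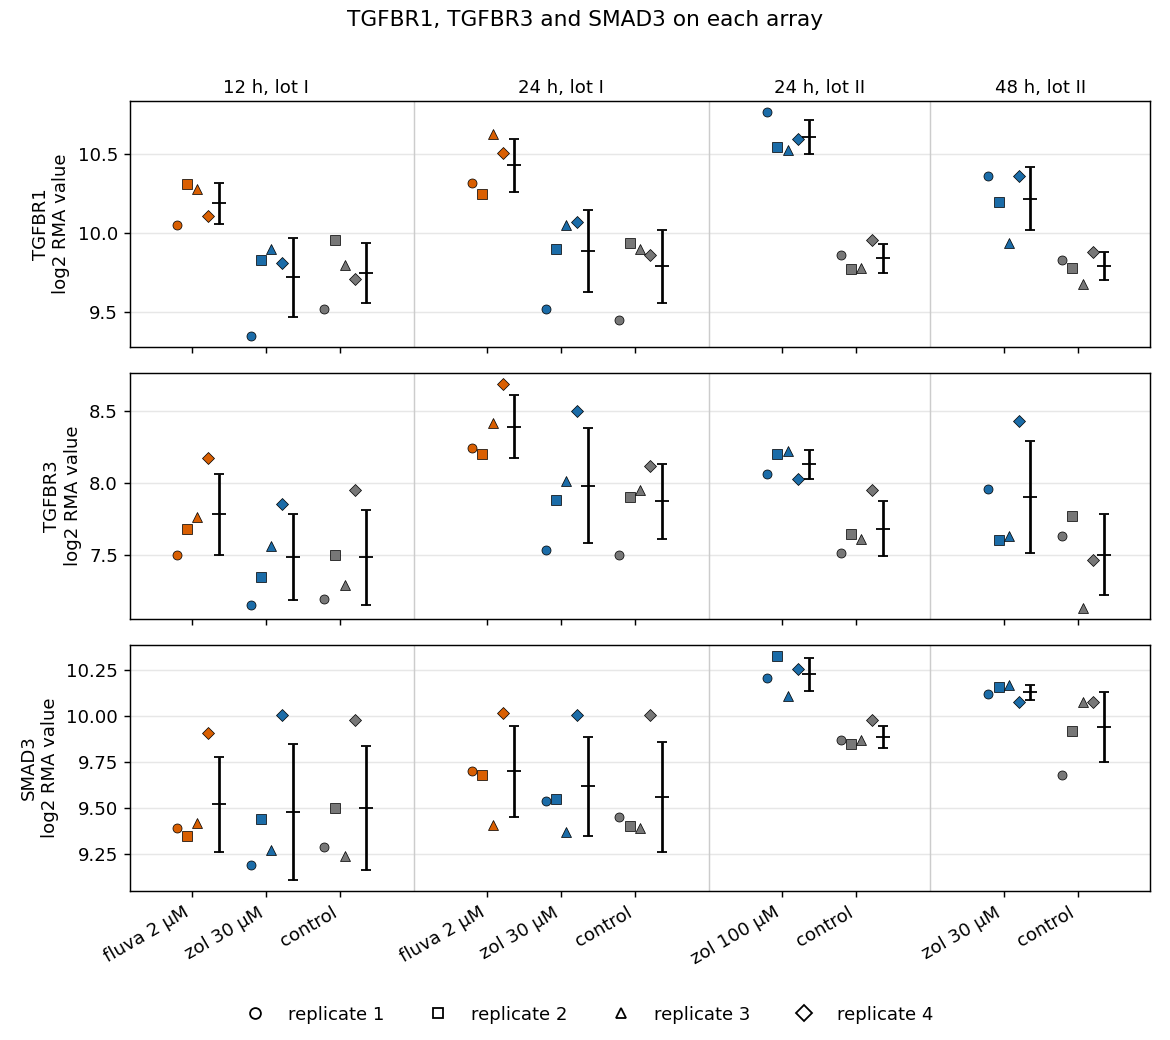
Log2 RMA values of TGFBR1, TGFBR3 and SMAD3 on each array, by lot, time and treatment, with replicate numbers as symbols and mean ± SD (n = 4) beside each group. TGFBR1 under 100 µM zoledronate lies at 10.53 to 10.77, against 9.77 to 9.96 in its controls, and SMAD3 replicate 4 of lot I lies at 9.91 to 10.02 in all 6 groups.

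Of the intracellular genes, SMAD3 (probe set 7984364, gene at chr15:67065602-67195169), the transducer of the TGF-beta signal to the nucleus, passed the test only under 100 µM zoledronate. Its values there were 10.21, 10.33, 10.11 and 10.26, against 9.87, 9.85, 9.87 and 9.98 in the controls, with a gap of 0.13 between the groups. SMAD3 rose by 0.34 ± 0.07 (limma, adjusted p = 0.0006), and without the replicate block the adjusted p was 0.14. At 48 h of 30 µM zoledronate SMAD3 stood at 0.19 ± 0.07 (limma, adjusted p = 0.1), and it passed at 0.24 with an adjusted p of 0.044 after quantile normalization anew.

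In lot I, SMAD3 differed more between replicates than between treatments. Replicate 4 lay at 9.91 to 10.02 in all 6 groups, and the other 18 arrays lay at 9.19 to 9.70. Within that lot fluvastatin at 24 h gave 0.14 ± 0.07 (limma, adjusted p = 0.22).

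SMAD7 (probe set 8023220, gene at chr18:48919853-48950965) encodes the inhibitory SMAD that targets the receptors for degradation. The SMAD7 probe set lay at percentile 48.0 of all probe sets by mean level, and detection of the transcript was not tested. At 48 h of 30 µM zoledronate its 4 values lay between 5.95 and 6.10, against 5.73, 5.69, 5.85 and 5.89 in the controls, with all 4 pairs higher and no overlap. The difference of 0.21 ± 0.07 missed the threshold, with an adjusted p of 0.061 in limma. It passed when the dimmest genes were removed (0.033) and without replicate 4 (0.04). SMAD7 stood at 0.09 ± 0.07 under 100 µM zoledronate, 0.06 ± 0.07 under fluvastatin at 12 h and -0.07 ± 0.07 at 24 h, none past the threshold.

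SKIL (probe set 8083876, gene at chr3:170357715-170396849) encodes SnoN, which holds SMAD complexes inactive on DNA. The SKIL probe set lay at percentile 53.8 by mean level, and its detection was not tested either. Its differences ran between -0.12 (30 µM zoledronate 48 h) and 0.09 (fluvastatin 12 h), with SEs of 0.12, and none passed. The mean SKIL level was higher at 12 h than at 24 h for each treatment of lot I, at 6.81 ± 0.12 in the 12 h controls and 6.43 ± 0.04 in the 24 h controls (SD, n = 4 each), a step not tested here.

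**Figure D4:**
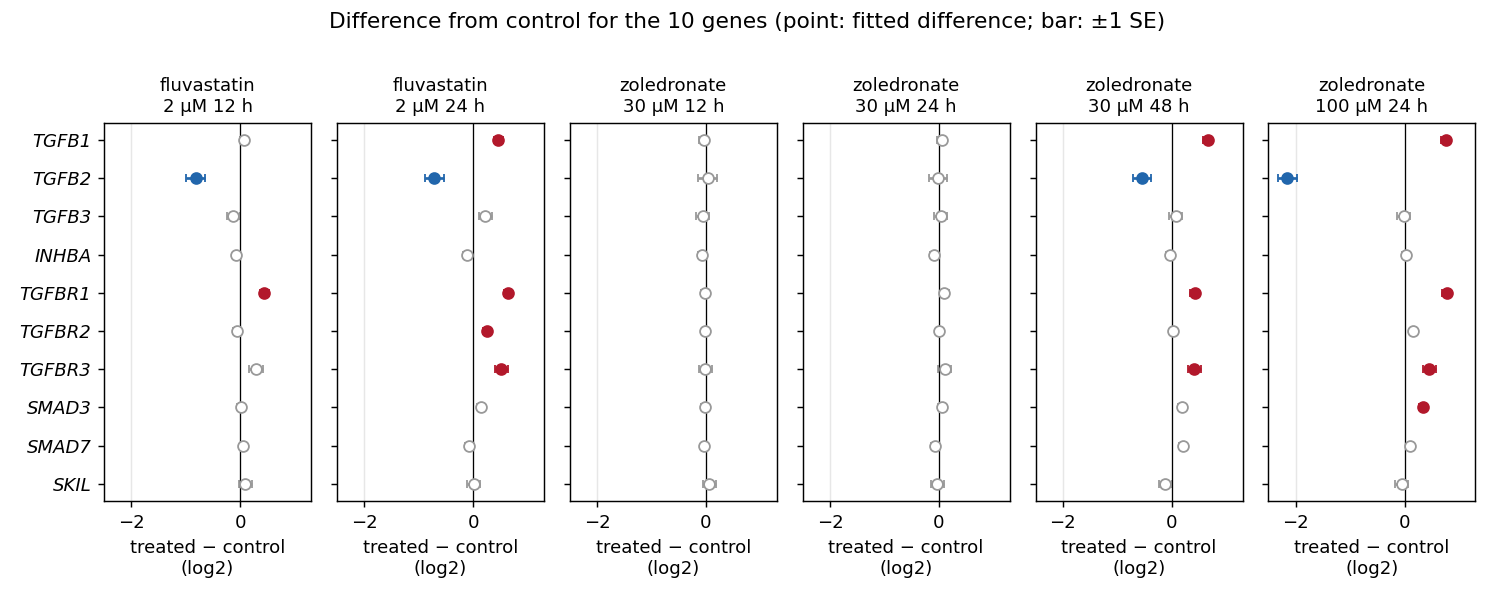
Fitted treated minus control log2 difference (point) with ± 1 SE (bar) for the 10 genes in the 6 treated groups. Filled red points rose and filled blue points fell at an adjusted p under 0.05 in limma, open points did not pass, and TGFB2 at 100 µM zoledronate stands at -2.15.

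Because the 10 genes were chosen with earlier results of these data known, their counts beside the shares of all genes are a description. Counted over the 10 genes, 1 rose and 1 fell under fluvastatin at 12 h, where 0.348% of all genes rose and 0.527% fell. At 24 h of fluvastatin 4 rose and 1 fell, against 6.71% and 3.77% of all genes. At 48 h of 30 µM zoledronate 3 rose and 1 fell, against 3.16% and 4.43%, and at 100 µM zoledronate 4 rose and 1 fell, against 15.3% and 16.6%. Under 30 µM zoledronate 0 of the 10 genes passed in limma at 12 h and 0 at 24 h, with 0 at an unadjusted p under 0.05 at either time. In those groups 0% of all genes rose and 0% fell, with 511 and 866 of the 18417 at an unadjusted p under 0.05. The median log2 difference of the 10 genes was 0.04 and 0.18 for fluvastatin at 12 and 24 h, -0.02, 0.02 and 0.13 for 30 µM zoledronate at 12, 24 and 48 h, and 0.13 for 100 µM, while the median of all genes lay between -0.01 and 0.01 in each.

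The 2 agents were next compared with each other at 12 and at 24 h, at doses that differ (zoledronate 30 µM, fluvastatin 2 µM). At 12 h, 2 of the 10 genes differed, against 0.738% of all genes. TGFB2 was 0.85 ± 0.17 higher under zoledronate than under fluvastatin, with values of 9.20, 9.61, 9.76 and 9.77 against 7.70, 9.22, 9.08 and 8.92 (limma, adjusted p = 0.017). TGFBR1 was lower under zoledronate, at -0.46 ± 0.08 (limma, adjusted p = 0.0088). Without the replicate block the adjusted p was 0.27 for TGFB2 and 0.14 for TGFBR1. Leaving out replicate 1, 3 or 4 ended both calls as well, at 0.063, 0.25 and 0.1 for TGFB2 and 0.066, 0.22 and 0.061 for TGFBR1.

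At 24 h, 5 of the 10 genes differed between the agents, against 7.23% of all genes. TGFBR1 was lower under zoledronate by -0.54 ± 0.08 on the log2 scale (limma, adjusted p = 0.00032), a call kept in all 15 alternative settings. TGFB1 stood at -0.41 ± 0.08 and TGFB2 at 0.69 ± 0.17 (limma, adjusted p = 0.0041 and 0.013). Their adjusted p without the replicate block was 0.14 and 0.19, and without replicate 1 it was 0.097 and 0.11. For TGFB2 it was also 0.062 on the own arrays, 0.084 without replicate 3 and 0.12 without replicate 4. TGFBR2 at -0.25 ± 0.07 and TGFBR3 at -0.41 ± 0.12 were near the threshold (limma, adjusted p = 0.038 and 0.04), and without the replicate block their adjusted p was 0.38 and 0.33. Without replicate 1 or 3 it was 0.5 and 0.088 for TGFBR2, with 0.14 without replicate 4, and 0.5 and 0.17 for TGFBR3.

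Dose and time were compared last. Where 100 µM is set against 30 µM at 24 h, and 48 h against 24 h, the lots differ as well, and lot and condition cannot be told apart. For 100 µM against 30 µM zoledronate at 24 h, 4 of the 10 genes differed in their response, against 20.3% of all genes. The response of TGFB2 was lower at 100 µM, at -2.13 ± 0.24, and that of TGFB1 was 0.70 ± 0.12 and of TGFBR1 0.67 ± 0.11 higher (limma, adjusted p = 1.7e-06, 0.00012 and 0.00011). SMAD3 differed by 0.28 ± 0.10 (limma, adjusted p = 0.048), a call lost in 8 of the 15 alternative settings, with an adjusted p of 0.5 without the replicate block and between 0.11 and 0.14 without any 1 replicate.

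For 30 µM zoledronate at 48 h against 24 h, 1 of the 10 genes differed, against 0.407% of all genes. TGFB1 responded 0.61 ± 0.12 more at 48 h (limma, adjusted p = 0.025), with an adjusted p of 0.37 without the replicate block, 0.065 with a random block, 0.13 on the own arrays, 0.053 after median centring, and 0.069, 0.25 and 0.16 without replicate 1, 3 or 4. TGFB2 stood at -0.52 ± 0.24 in that comparison and did not pass (limma, adjusted p = 0.29). For fluvastatin at 24 h against 12 h, within lot I, 0 of the 10 genes passed in limma, with 2 at an unadjusted p under 0.05 (TGFB1 at 0.39 ± 0.12 and TGFBR2 at 0.32 ± 0.10), and 0% of all genes passed, with 2014 at an unadjusted p under 0.05. For 100 µM at 24 h against 30 µM at 48 h, both in lot II, 1 of the 10 genes differed, against 8.23% of all genes: TGFB2 stood at -1.60 ± 0.24 (limma, adjusted p = 0.00017). TGFBR1 stood at 0.34 ± 0.11 there (limma, adjusted p = 0.054), and its adjusted p was 0.023 after quantile normalization anew, 0.03 without the dimmest genes, 0.027 with an intensity trend and 0.013 with array weights.

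The 10 genes were also set against each other over all 40 arrays, after each value was centred on the mean of its lot, time and replicate. These points share controls and agents, so the correlations are a description. TGFB2 correlated with TGFBR1 at r = -0.90 and with TGFB1 at r = -0.84, and TGFB1 correlated with TGFBR1 at 0.86, with TGFBR3 at 0.84 and with SMAD3 at 0.81. Of all 18417 genes, those most like TGFB2 were SNAPC1 (r = 0.99), AJUBA, CRIM1, FJX1 and ARHGEF28 (each 0.98). The genes most like TGFB1 were BAG3 (0.97), SLC5A3, ENPP1, S100A10 and HDAC1 (each 0.96).

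The rest of the pathway was described by role in 6 lists, also drawn up with earlier results of these data known. In limma, 0 of their genes passed under 30 µM zoledronate at 12 or 24 h, where 0 of all genes did. The counts stand against the same background as those of the 10 genes: 15.3% of all genes rose and 16.6% fell under 100 µM zoledronate, 6.71% and 3.77% under fluvastatin at 24 h, and 3.16% and 4.43% under 30 µM zoledronate at 48 h. Of 14 genes that keep TGF-beta latent or free it, 6 rose and 1 fell under 100 µM zoledronate, 5 rose under fluvastatin at 24 h and 4 rose under 30 µM zoledronate at 48 h. LTBP3 and LTBP1, which tether latent TGF-beta to the matrix, rose by 1.29 ± 0.15 and 1.22 ± 0.20 under 100 µM zoledronate (limma, adjusted p = 5.4e-07 and 2.9e-05), and FBN1, the microfibril protein that LTBPs bind, rose by 0.94 ± 0.13. LTBP3 also rose by 0.70 ± 0.15 under fluvastatin at 24 h and by 0.76 ± 0.15 at 48 h of 30 µM zoledronate, both lost on the own arrays and the first also without replicate 1. THBS1, an activator of latent TGF-beta, fell by 1.77 ± 0.20 under 100 µM zoledronate (limma, adjusted p = 2e-07). With 1 replicate number left out, 0 to 4 genes of this list were called under fluvastatin at 24 h and 2 to 3 at 48 h, where 2 were called without the array that stood apart and 1 without the replicate block.

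Of 21 measured ligands of the wider superfamily, 3 rose and 2 fell under 100 µM zoledronate, 2 rose and 1 fell under fluvastatin at 24 h, and 0 passed in limma under fluvastatin at 12 h (2 at an unadjusted p under 0.05). Either way this was 5 of 21 under 100 µM, where 32% of all genes were called, and the 3 calls under fluvastatin went to 0 without the replicate block and to 0 to 3 with 1 replicate number left out. GDF15, a stress-induced cytokine, rose by 1.47 ± 0.28 under 100 µM zoledronate, and BMP4 fell by 0.49 ± 0.08 (limma, adjusted p = 0.00024 and 3.3e-05). Of 11 other receptors, 3 rose and 2 fell under 100 µM zoledronate, and 2 rose and 2 fell under fluvastatin at 24 h, where 1 was called without the replicate block and 1 to 3 with 1 replicate number left out. Under 100 µM they included BMPR2, the type II receptor for bone morphogenetic proteins, at 0.48 ± 0.10, and BAMBI, a kinase-dead decoy receptor, at -0.49 ± 0.09. Of 6 other SMADs, SMAD6 rose by 0.33 ± 0.09 and SMAD1 and SMAD5, which carry bone morphogenetic protein signals, fell by 0.27 ± 0.08 and 0.25 ± 0.08 at that dose, of which only SMAD6 was called without the replicate block. With 1 replicate number left out, 1 to 3 of these SMADs were called.

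Of 21 regulators, 3 rose and 7 fell under 100 µM zoledronate, and 1 rose and 4 fell both under fluvastatin at 24 h and under 30 µM zoledronate at 48 h. With 1 replicate number left out, 6 to 8 of them were called under 100 µM, 1 to 5 under fluvastatin at 24 h and 2 to 4 at 48 h. Without the replicate block the counts were 6, 3 and 2. NEDD4L, a ubiquitin ligase that removes activated SMAD2 and SMAD3, fell by 1.38 ± 0.09 under 100 µM zoledronate, by 0.61 ± 0.09 under 30 µM at 48 h and by 0.49 ± 0.09 and 0.55 ± 0.09 under fluvastatin at 12 and 24 h (limma, adjusted p = 1.5e-10, 0.00033, 0.013 and 0.00059). The NEDD4L call at 100 µM was kept in all 15 settings, the calls at 48 h and at 24 h of fluvastatin were lost on the own arrays, and the 12 h call was lost there and without replicate 2, 3 or 4. FST, which encodes the activin-binding protein follistatin, fell by 2.19 ± 0.21 under 100 µM zoledronate (limma, adjusted p = 2.7e-08). SMURF2, a further ubiquitin ligase of the pathway, fell by 0.47 ± 0.05 and the SMAD corepressor gene TGIF1 rose by 0.68 ± 0.11 at that dose.

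Of 21 measured transcriptional targets of TGF-beta, 6 rose and 8 fell under 100 µM zoledronate, 5 rose and 4 fell under fluvastatin at 24 h, and 4 rose and 1 fell under 30 µM at 48 h. CCN2, a matricellular growth factor that other pathways also regulate, fell by 2.82 ± 0.20 under 100 µM zoledronate, and SNAI2, a transcription factor of epithelial-mesenchymal transition, fell by 1.49 ± 0.10 (limma, adjusted p = 5.6e-10 and 2.7e-10). FN1, the gene of the matrix protein fibronectin, rose by 1.18 ± 0.11, BHLHE40, a transcription factor, rose by 2.47 ± 0.21, and ID1, an inhibitor of differentiation factors, rose by 0.91 ± 0.13. TGFBI, a matrix protein named for its induction by TGF-beta, fell by 0.25 ± 0.09 at that dose (limma, adjusted p = 0.034). Its pairs differed by -0.23, 0.03, -0.54 and -0.24, so that 1 pair ran the other way, and the groups overlapped. Neither TGFBI nor ID1 was followed by itself through the alternative settings. Under fluvastatin at 24 h, 3 of the targets were called without the replicate block and 3 to 9 with 1 replicate number left out, against 9 in all.

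**Figure D5:**
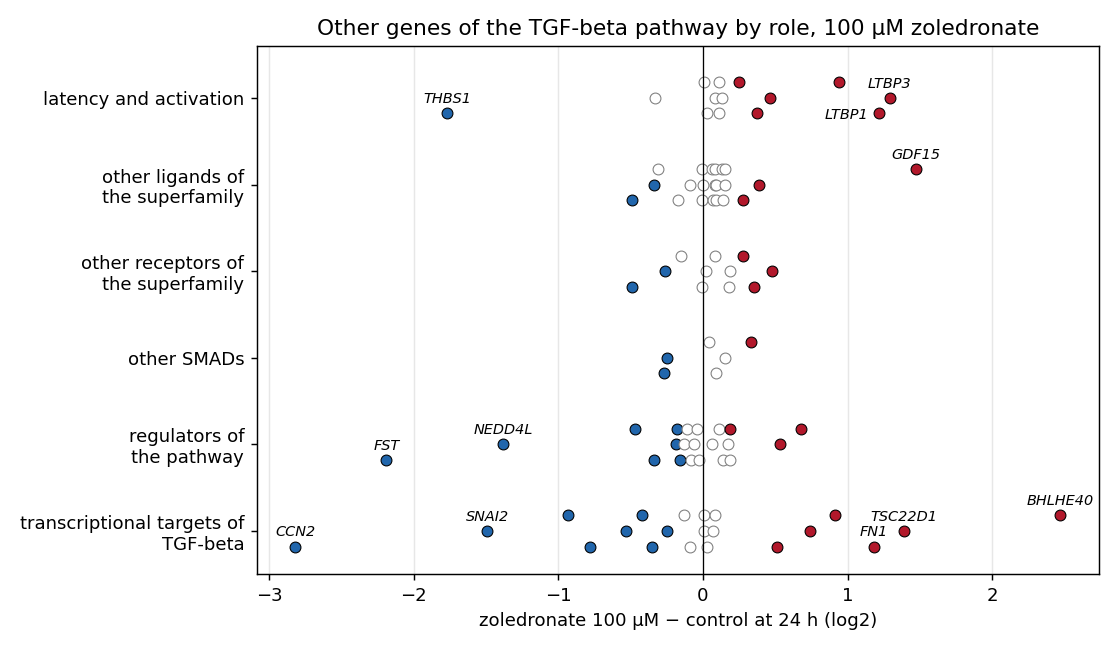
Fitted log2 difference of the other pathway genes under 100 µM zoledronate minus control at 24 h, 1 point per gene, by role. Filled red points rose and filled blue points fell at an adjusted p under 0.05 in limma, open points did not pass, and genes with a difference of 1 or more in size are named, from CCN2 at -2.82 to BHLHE40 at 2.47.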

How the data were processed

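The files hold log2 expression values that the authors computed and deposited for 33297 probe sets on 40 arrays. Per the submitters' processing notes, RMA, Affymetrix Power Tools 1.10.2 and limma were used, and the sources used here do not state the genome build or whether both lots were normalized in 1 run. Names came from the platform annotation: 19460 probe sets had 1 symbol, of which 19429 matched RefSeq, 1754 had several symbols and 12083 were not listed. Where a gene had several probe sets (769 genes) the brightest was kept, which left 18417 genes.

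Differences were fitted on the deposited log2 values with limma 3.58.1 in R 4.3.3, on all 40 arrays, with lot, time and replicate as a block (16 blocks, 18 residual degrees of freedom), and the Benjamini-Hochberg adjustment ran over all genes, with a threshold of 0.05. The block follows the design text, which states that arrays were paired by day. Same-numbered arrays deviated together in lot I (r = 0.17 to 0.60 in all 4 groups), and in lot II r was 0.55, -0.19, 0.31 and -0.30 at 48 h and 0.26, -0.09, 0.09 and -0.07 at 100 µM, so the pairing there rests on the design text. The replicates are independent per the labels.

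The text names all 10 genes, up to 4 genes with the smallest adjusted p per other list and comparison, TGFBI, CCN2, FN1 and ID1, and the 5 genes most like TGFB1 and TGFB2. The members and lists were chosen with earlier results of these data known. No detection call was used. The fit was also run on simulated data with independent normal noise for each gene. Such data cannot test the effect of outlying pairs, of correlation between genes or of the weak pairing in lot II. Alternatives were no block, a wider block, a random block, own arrays, quantile normalization, median centring, a filter on dim genes, array weights, an intensity trend, the mean of probe sets, and leaving out each replicate number in all groups or the array that stood apart. The other lists were run through the same 15 alternatives after the data had been seen. Promoters are from RefSeq, GRCh38.p14.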

Additional observations from a re-analysis of the deposited data

Results flagged for a closer look

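Of 100 groups of 4 arrays and 60 groups of 4 pair differences searched, 19 had 1 value standing apart from the other 3 by Dixon's criterion, which chance gives in about 1 in 20 groups. Among the ligands, the pair differences standing apart were TGFB2 under fluvastatin at 12 h in pair 1 (-1.59, against -0.66 to -0.51 in the other pairs), TGFB2 under 30 µM zoledronate at 48 h in pair 2 (-0.11, against -0.73 to -0.65) and TGFB1 under fluvastatin at 24 h in pair 1 (0.83, against 0.32 to 0.35). TGFB3 stood apart in pair 1 at 12 h under fluvastatin (-0.34) and under 30 µM zoledronate (-0.24), and as a level in replicate 3 of 30 µM zoledronate at 24 h (6.55). INHBA did so as a level in replicate 1 of 30 µM zoledronate at 12 h (6.18) and as a difference in pair 2 of 100 µM zoledronate (0.16).

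Of the receptors, TGFBR1 was low in replicate 1 of 30 µM zoledronate at 12 h (9.35, against 9.81 to 9.90) and of the 24 h controls of lot I (9.45, against 9.86 to 9.94). TGFBR2 was high in replicate 4 of fluvastatin at 12 h (10.34), and the TGFBR3 difference was small in pair 4 of 100 µM zoledronate (0.08, against 0.55 to 0.61). SMAD3 was high in replicate 4 of fluvastatin at 12 h (9.91), of the 24 h controls of lot I (10.01) and of the 24 h controls of lot II (9.98). SMAD7 was low in replicate 3 of 30 µM zoledronate at 12 h (6.24), and its difference was small in pair 4 of 30 µM zoledronate at 48 h (0.06, against 0.25 to 0.27). SKIL was high in replicate 1 of the lot II controls at 24 h (6.80) and at 48 h (6.78).

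A set of 13 differences between treatments, doses or times passed the test of the difference itself in limma. For 30 µM zoledronate minus fluvastatin these were TGFB2 (0.85) and TGFBR1 (-0.46) at 12 h, and TGFB1 (-0.41), TGFB2 (0.69), TGFBR1 (-0.54), TGFBR2 (-0.25) and TGFBR3 (-0.41) at 24 h. For 100 µM minus 30 µM zoledronate at 24 h they were TGFB1 (0.70), TGFB2 (-2.13), TGFBR1 (0.67) and SMAD3 (0.28). TGFB1 differed between 48 h and 24 h of 30 µM zoledronate (0.61), and TGFB2 between 100 µM at 24 h and 30 µM at 48 h (-1.60). Among all genes, 0.738% and 7.23% differed between the agents at 12 and 24 h. For the other comparisons, in the order given, the shares were 20.3%, 0.407% and 8.23%. Lot differed as well for 100 µM minus 30 µM at 24 h and for 48 h against 24 h. Of the agent differences, only TGFBR1 at 24 h was kept in every alternative setting. Of the others, all but SMAD3 and the 48 h against 24 h difference of TGFB1 were kept.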

How the results depend on the processing

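Of the 29 calls made for the 10 genes over 12 comparisons, 8 were kept in all 15 alternative settings: TGFB1, TGFB2 and TGFBR1 under 100 µM zoledronate and in 100 µM against 30 µM at 24 h, TGFB2 in 100 µM at 24 h against 30 µM at 48 h, and TGFBR1 in zoledronate against fluvastatin at 24 h. No called difference changed its sign. Without the replicate block, the number of the 10 genes called was 0 instead of 2 for fluvastatin at 12 h, 1 instead of 5 at 24 h, 1 instead of 4 for 30 µM zoledronate at 48 h and 3 instead of 5 for 100 µM. It was 0 instead of 2 and 1 instead of 5 for zoledronate against fluvastatin at 12 and 24 h, and 0 instead of 1 for 48 h against 24 h of zoledronate. The random block, with a correlation of 0.26, gave 2 at 48 h, 3 for zoledronate against fluvastatin at 24 h and 0 for 48 h against 24 h. On the own arrays of each comparison, with fewer degrees of freedom, the counts were 0 for fluvastatin at 12 h, 0 at 24 h, 0 for 30 µM at 48 h, 3 for zoledronate against fluvastatin at 24 h and 0 for 48 h against 24 h. Median centring gave 3 and 0 for these last 2 comparisons. Quantile normalization anew, removal of the dimmest genes (12278 kept), an intensity trend and array weights each gave 2 instead of 1 for 100 µM at 24 h against 30 µM at 48 h. The wider replicate block moved none of these counts by more than 1.5 times. With 1 replicate left out, the counts ranged from 0 to 2 and from 1 to 5 for fluvastatin at 12 and 24 h, stayed at 0 for 30 µM zoledronate at 12 and 24 h, and ranged from 2 to 4 at 48 h and from 4 to 5 at 100 µM. They ranged from 0 to 2 and from 1 to 5 for zoledronate against fluvastatin at 12 and 24 h, stayed at 0 for fluvastatin at 24 h against 12 h, ranged from 0 to 1 for 48 h against 24 h and from 3 to 5 for 100 µM against 30 µM at 24 h, and stayed at 1 for 100 µM at 24 h against 30 µM at 48 h. Leaving out the array that stood apart left each of these counts as it was. The mean TGFB1 minus TGFB2 contrast ranged with 1 replicate left out from 0.66 to 1.02 and from 0.83 to 1.35 for fluvastatin at 12 and 24 h, from -0.16 to 0.02, from -0.02 to 0.19 and from 1.12 to 1.44 for 30 µM zoledronate at 12, 24 and 48 h, and from 2.83 to 2.98 for 100 µM. The split of all called genes into higher and lower moved by over 10 percentage points after median centring for fluvastatin at 12 h (44 and 123, against 64 and 97), 30 µM at 48 h (362 and 898, against 582 and 815), zoledronate against fluvastatin at 12 h (92 and 29, against 84 and 52) and 48 h against 24 h (6 and 39, against 22 and 53). After quantile normalization it did so for zoledronate against fluvastatin at 12 h (68 and 65) and for 100 µM against 30 µM at 24 h (2047 and 1604, against 1694 and 2052). Of the 58 calls of other pathway genes that the naming rule covers, not all of them named in the text, 19 were kept in all 15 settings, all under 100 µM zoledronate, and those under fluvastatin or 30 µM zoledronate at 48 h were each lost at least on the own arrays. The cause of these changes was not tested.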

Other observations

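Among the control arrays alone, SMAD7 lay at 5.69 to 6.01 in the 8 arrays of lot II and at 6.06 to 6.53 in the 8 of lot I, with no overlap. No other member of the 10 genes was separated in this way, and the share of all genes so separated was not counted. TGFBR2 averaged 10.53 in lot II controls and 10.13 in lot I controls, and SMAD3 averaged 9.92 and 9.53, with overlapping ranges. TGFB1 averaged 8.80 and 8.94 and TGFB2 9.64 and 9.57 in the same order. The lots hold controls of different times, so lot and time are not separate here, and these values were not tested.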
